A study of Mus musculus with 56 samples.

Results

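Of 56 p53null mouse mammary tumors measured on expression arrays, 28 were compared here: the 14 with the highest skeletal muscle score and the 14 with the lowest. The score of a tumor is the mean log2 value of Acta1 (the actin of skeletal muscle thin filaments), Ckm (muscle creatine kinase), Tnnt3 (fast troponin T) and Mylpf (the regulatory light chain of fast myosin), each read from its probe set of highest mean. Tumors were ranked within host genotype, and the top 8 of 32 tumors from wild-type (WT) hosts and the top 6 of 24 from TGFb1 heterozygote (Het) hosts form the muscle-high group. The muscle-low group holds the bottom 8 WT and bottom 6 Het tumors. The remaining 28 tumors lie between the groups.

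All tumors grew in female BALB/c hosts from transplanted fragments of p53null mammary gland. The inguinal fat pads that received them had been cleared of host epithelium when the hosts were 3 weeks old. Hosts were irradiated or sham-irradiated 3 days before transplantation, and the fragments themselves were not irradiated, per the labels. The muscle-high group held 5 tumors from irradiated and 3 from sham-irradiated WT hosts, with 5 from irradiated and 1 from sham-irradiated Het hosts. The muscle-low group held 4 from irradiated and 4 from sham-irradiated WT hosts, with 4 from irradiated and 2 from sham-irradiated Het hosts. The labels give neither the radiation dose nor the age of the tumors. Nor is it given which tumors, if any, grew in the same animal, so the p-values below rest on the spread between arrays. Tumors are named here by host genotype, host treatment and the number in their label.

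Skeletal muscle fibres contract when calcium, released from the sarcoplasmic reticulum through the ryanodine receptor, binds troponin on the thin filament and lets myosin heads pull on actin. Each fibre type carries its own set of myosin heavy chains and troponins, with separate sets for adult fast fibres, adult slow fibres and developing fibres. Fibres arise from progenitors marked by Pax7 through the myogenic factors Myf5, Myod1 and Myog. The inguinal mammary gland lies in subcutaneous fat near the thin skeletal muscle of the skin, and mammary epithelium itself makes smooth muscle proteins in its myoepithelial layer, not those of skeletal muscle.

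The 250 bases before the transcription start are printed for score genes Acta1 and Ckm, for the adult fast myosin Myh4, and for the embryonic myosin Myh3, because the muscle-high tumors differed in which of these they carried. The sequences are those of RefSeq on build GRCm38.p6, written 5′ to 3′ on the strand of the gene. Capitals mark matches to 4 motifs, searched on both strands. They are the E-box CAGCTG, the MEF2 motif, the CArG box and the MCAT element, whose letters are CATTCC. No matches overlap in these 4 windows.
Acta1, chr8:123894776-123895025, minus strand: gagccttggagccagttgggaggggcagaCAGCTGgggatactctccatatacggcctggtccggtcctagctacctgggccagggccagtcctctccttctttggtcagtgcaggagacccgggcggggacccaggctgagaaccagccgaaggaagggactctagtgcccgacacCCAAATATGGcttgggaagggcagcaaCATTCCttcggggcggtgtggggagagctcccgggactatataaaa
Ckm, chr7:19410844-19411093, plus strand: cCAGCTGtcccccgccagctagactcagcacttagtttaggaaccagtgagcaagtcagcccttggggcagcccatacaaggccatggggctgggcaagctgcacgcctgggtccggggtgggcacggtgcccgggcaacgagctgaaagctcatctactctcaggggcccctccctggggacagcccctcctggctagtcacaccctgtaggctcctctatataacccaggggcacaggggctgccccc
Myh4, chr11:67237562-67237811, plus strand: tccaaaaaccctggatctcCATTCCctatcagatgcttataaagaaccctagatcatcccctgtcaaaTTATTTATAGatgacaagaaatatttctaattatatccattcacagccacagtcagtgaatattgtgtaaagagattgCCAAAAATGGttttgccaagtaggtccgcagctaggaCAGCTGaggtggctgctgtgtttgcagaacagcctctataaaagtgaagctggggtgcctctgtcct
Myh3, chr11:67078050-67078299, plus strand: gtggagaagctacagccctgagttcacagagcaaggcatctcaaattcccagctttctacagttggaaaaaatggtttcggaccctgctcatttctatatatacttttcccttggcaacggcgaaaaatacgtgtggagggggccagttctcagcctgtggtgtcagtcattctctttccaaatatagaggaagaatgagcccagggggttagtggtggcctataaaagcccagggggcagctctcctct
The Acta1 window held an E-box starting 221 bases before the start site, a CArG box at 73 and an MCAT element at 46 bases. The Ckm window held an E-box at 249 bases. The Myh4 window held all 4 motifs, at 231 (MCAT), 182 (MEF2), 104 (CArG) and 67 bases (E-box), and the Myh3 window held none of these letters. Of the 4 score genes and the 18 other genes that passed the test below, 16 matched a promoter, some with more than 1 start, giving 17 windows. CAGCTG was in 9 of these 17 windows, against 13.0% of 32851 windows of all genes. CATTCC was in 5 of 17 against 12.6%, the MEF2 motif in 5 of 17 against 2.92%, and the CArG box in 2 of 17 against 1.47%. A match describes the letters only.

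The muscle score spread widely among the muscle-high tumors and hardly at all among the muscle-low tumors. In WT hosts the 8 muscle-high scores ran from 6.49 to 11.56 with a median of 9.06, and the 8 muscle-low scores from 5.01 to 5.20 with a median of 5.12. In Het hosts the 6 muscle-high scores ran from 6.92 to 11.13 with a median of 8.80, and the 6 muscle-low scores from 4.79 to 5.04 with a median of 4.90. The ranking sets this gap, so it is a description and carries no test. Just inside and just outside the upper limit stood scores of 6.49 and 6.36 in WT hosts and 6.92 and 6.75 in Het hosts. At the lower limit these were 5.20 and 5.23 in WT hosts and 5.04 and 5.06 in Het hosts. Most tumors between the groups had scores close to the muscle-low range, with a median of 5.36 in WT and 5.17 in Het hosts.

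**Figure D1:**
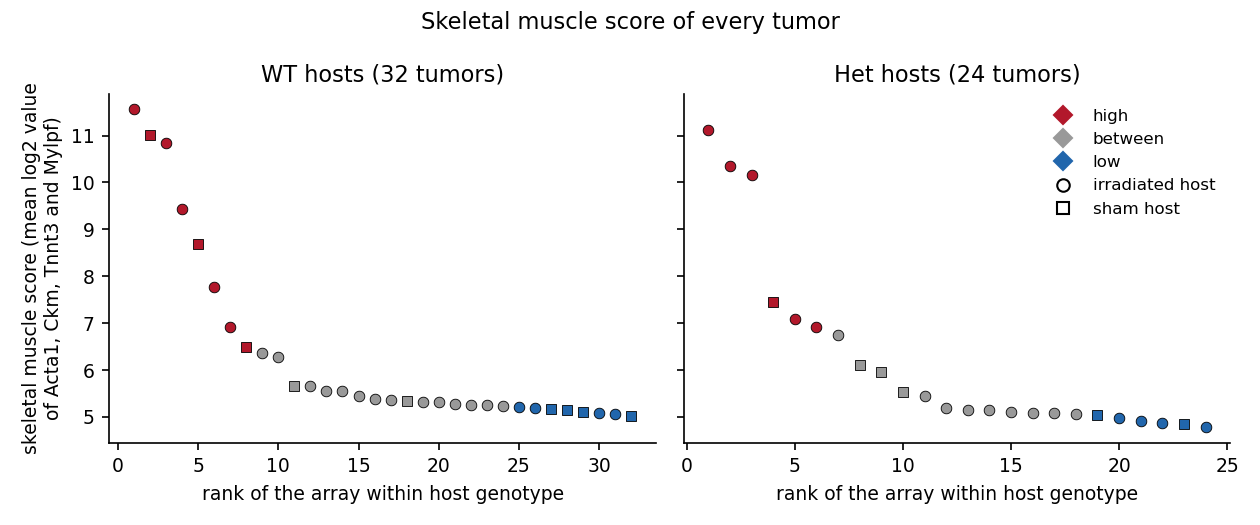
Skeletal muscle score (mean log2 value of 4 genes, vertical axis) of every tumor against its rank within host genotype (horizontal axis), with 1 point per tumor, coloured by group and shaped by host treatment. Scores of muscle-high tumors reach 11.56 in WT and 11.13 in Het hosts, and from the middle ranks on the points form a flat line near 5.

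Levels are compared across host genotypes only loosely, since the arrays of the 2 genotypes may have been normalized separately. The highest scores were those of WT irradiated 59 (11.56), Het irradiated 42 (11.13), WT sham 60 (11.01) and WT irradiated 11 (10.84). Het irradiated 56 and 55 followed with 10.34 and 10.15, then WT irradiated 21 with 9.43 and WT sham 31 with 8.70. The last 6 were WT irradiated 53 (7.77), Het sham 58 (7.44), Het irradiated 1 (7.10), Het irradiated 34 (6.92), WT irradiated 57 (6.92) and WT sham 61 (6.49). Both host treatments are among the high and the low scores. Acta1 itself ran from 8.07 to 13.48 in the 14 muscle-high tumors and from 5.34 to 5.91 in the 14 muscle-low tumors, and Ckm from 6.50 to 11.46 and from 4.90 to 5.63.

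Outside the score, some genes of the skeletal sarcomere, its calcium store and its fuel use were higher in the muscle-high tumors. In this fit no gene outside the muscle lists passed the test. With limma, host genotype as a block and Benjamini-Hochberg adjustment, 18 of 12504 genes (0.144%) passed an adjusted p of 0.05 as higher in muscle-high tumors and 0 passed as lower. All 18 belong to 9 lists of skeletal muscle genes. Of their 138 members 132 had a named probe set and 86 passed the filter on low values. The lists were chosen with earlier results of these data known. The split into listed and other genes is therefore not independent of the data. Genes of one tissue follow a score made of that tissue's genes, so these differences and their adjusted p-values describe how genes vary together on the same arrays. The filter also keeps dim genes through the tumors where they are high, and with a filter on the mean over all arrays 6 genes were called higher. In bulk RNA, fewer muscle cells and less muscle RNA per cell cannot be told apart.

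Tnnc2 is the calcium-binding troponin of fast fibres. Its log2 value was 7.29 at the lowest, 9.97 at the median and 13.01 at the highest in muscle-high WT tumors, against 4.67, 5.03 and 5.14 in muscle-low WT tumors. In Het hosts it was 7.42, 9.51 and 11.82 in muscle-high tumors, against 4.60, 4.77 and 5.07 in muscle-low tumors. Every muscle-high tumor thus lay above every muscle-low tumor, and the difference was 4.99 ± 0.52 log2 units (limma estimate ± SE, adjusted p = 1.48e-06). Of the 18 genes, 4 had no overlap (Tnnc2, Myh4, Pvalb and Ttn), and of all 12504 genes tested 5 had none with the muscle-high tumors on top (0.04%).

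Myh4, the myosin heavy chain of the fastest adult fibres (type IIB), had the largest difference of the 18, 5.18 ± 0.55 log2 units (limma adjusted p = 1.48e-06). In WT hosts it ran from 4.29 through a median of 8.89 to 11.34 in muscle-high tumors, against 3.26, 3.54 and 3.73 in muscle-low tumors. In Het hosts it ran from 6.93 through 8.90 to 10.75 in muscle-high tumors, against 3.09, 3.34 and 3.68 in muscle-low tumors. The groups did not overlap, although 1 muscle-high tumor, WT irradiated 11, came close to the muscle-low range with 4.29.

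Myh1, the heavy chain of fast type IIX fibres, rose less evenly. In WT hosts it ran from 3.40 through 8.37 to 12.43 in muscle-high tumors and from 2.98 through 3.25 to 3.94 in muscle-low tumors. In Het hosts it ran from 2.85 through 6.84 to 9.40 in muscle-high tumors and from 2.86 through 3.19 to 5.17 in muscle-low tumors. Here the groups overlapped: Het irradiated 55, Het irradiated 34 and WT irradiated 57 had Myh1 values no higher than muscle-low tumors, at 3.04, 2.85 and 3.40, while their Myh4 values were 10.27, 7.53 and 6.76. The difference was 4.15 ± 0.81 log2 units (limma adjusted p = 0.0136), and without WT irradiated 11 and 59 and WT sham 60 it was 3.06 with an adjusted p of 0.0617. Myh2, the heavy chain of fast oxidative type IIA fibres, did not pass the filter. Its highest values were 9.28 in WT irradiated 11 and 7.73 in WT irradiated 59, and it ran from 2.93 to 6.45 in the other 12 muscle-high tumors, against 3.08 to 3.55 in muscle-low tumors.

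Of the 11 adult fast-fibre genes listed besides the score genes, 10 passed the filter and 9 passed the test, with a median difference of 3.19 log2 units, while the median over all 12504 genes was -0.00. The others of these 9 were Myl1 (myosin essential light chain, 4.03), Tnni2 (fast troponin I, 3.39), Actn3 (the alpha-actinin of fast fibres, 2.99), Mybpc2 (fast myosin-binding protein C, 2.90), Pvalb (parvalbumin, a calcium buffer of fast fibres, 2.88) and Atp2a1 (the calcium pump of the fast-fibre reticulum, 2.74). Myoz1, a calcineurin-binding protein of the fast-fibre Z-disc, differed by 1.39 and missed the threshold (limma adjusted p = 0.147).

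Atp2a1 did not overlap between the groups within Het hosts, and overlapped slightly within WT hosts. It ran from 6.12 through 8.10 to 10.62 in muscle-high WT tumors, against 5.35, 5.82 and 6.18 in muscle-low WT tumors. In Het hosts it ran from 6.56 through 8.29 to 10.47 in muscle-high tumors, against 5.06, 5.20 and 5.83 in muscle-low tumors. The difference was 2.53 in WT and 3.01 in Het tumors. For all genes together, the test of the difference between host genotypes called 0 of 12504 with limma, and 1385 had an unadjusted p under 0.05. Fitted alone, the WT tumors gave 3 genes called higher (0.024%), Tnnc2, Myh4 and the small heat shock gene Cryab, and the Het tumors gave 1 (0.008%).

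Genes that build the sarcomere scaffold followed. Of 37 listed genes of the Z-disc, the titin filament and the M-band, 35 had a named probe set and 25 passed the filter. Of these 25, 5 rose and 0 fell, 24 had a positive difference, and the median was 1.13 log2 units. They were Neb (nebulin, the thin-filament ruler, 2.98), Ttn (titin, the elastic filament, 2.84), Smpx (a small muscle protein, 2.58), Myot (myotilin of the Z-disc, 2.34) and Mybpc1 (slow myosin-binding protein C, 1.72). Ttn ran from 5.11 through a median of 6.92 to 10.51 in the 14 muscle-high tumors and had a median of 4.46 and a maximum of 4.98 in the 14 muscle-low tumors, with no overlap. Myom2, an M-band protein, differed by 2.85 and Des, the intermediate filament desmin, by 1.65, and both missed the threshold (limma adjusted p = 0.141 and 0.0940). Without WT irradiated 11 and 59 and WT sham 60 both passed, with 1.66 and 0.98 log2 units (adjusted p = 0.0472 and 0.0114).

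Calcium handling and fuel use gave 4 further genes. Of 18 listed genes of excitation-contraction coupling, 12 passed the filter, all 12 had a positive difference and 2 rose: Ryr1, the calcium release channel (2.53 ± 0.44, limma adjusted p = 0.00332), and Trdn, triadin, which links it to the calcium store protein calsequestrin (2.17). Ryr1 ran from 4.06 through 6.37 to 9.16 in muscle-high tumors and from 3.60 through 3.98 to 4.75 in muscle-low tumors, and 12 of the 14 muscle-high tumors lay above the highest muscle-low tumor. Of 22 listed genes of muscle energy metabolism, 19 passed the filter and 2 rose, with a median of 0.42: Pgam2, muscle phosphoglycerate mutase (2.12), and Pygm, muscle glycogen phosphorylase. Pygm ran from 4.70 through 6.24 to 8.89 in muscle-high tumors and from 4.15 through 4.47 to 4.75 in muscle-low tumors, a difference of 1.99 ± 0.41 (limma adjusted p = 0.0301). Mb, myoglobin, which stores oxygen in oxidative fibres, differed by 1.17 and did not pass (limma adjusted p = 0.997). Pygm lost its call in 17 and Mybpc1 in 21 of the 28 fits that each left out 1 tumor, and the other 16 genes kept theirs in all 28. Without WT irradiated 11 and 59 and WT sham 60, Trdn, Myot, Pygm and Mybpc1 missed the threshold (limma adjusted p = 0.0728, 0.0852, 0.180 and 0.125). The list medians were then 2.73 for adult fast-fibre, 0.57 for sarcomere scaffold and 0.37 for energy metabolism genes. For excitation-contraction genes the median was 0.27, against 0.72 with these tumors in.

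**Figure D2:**
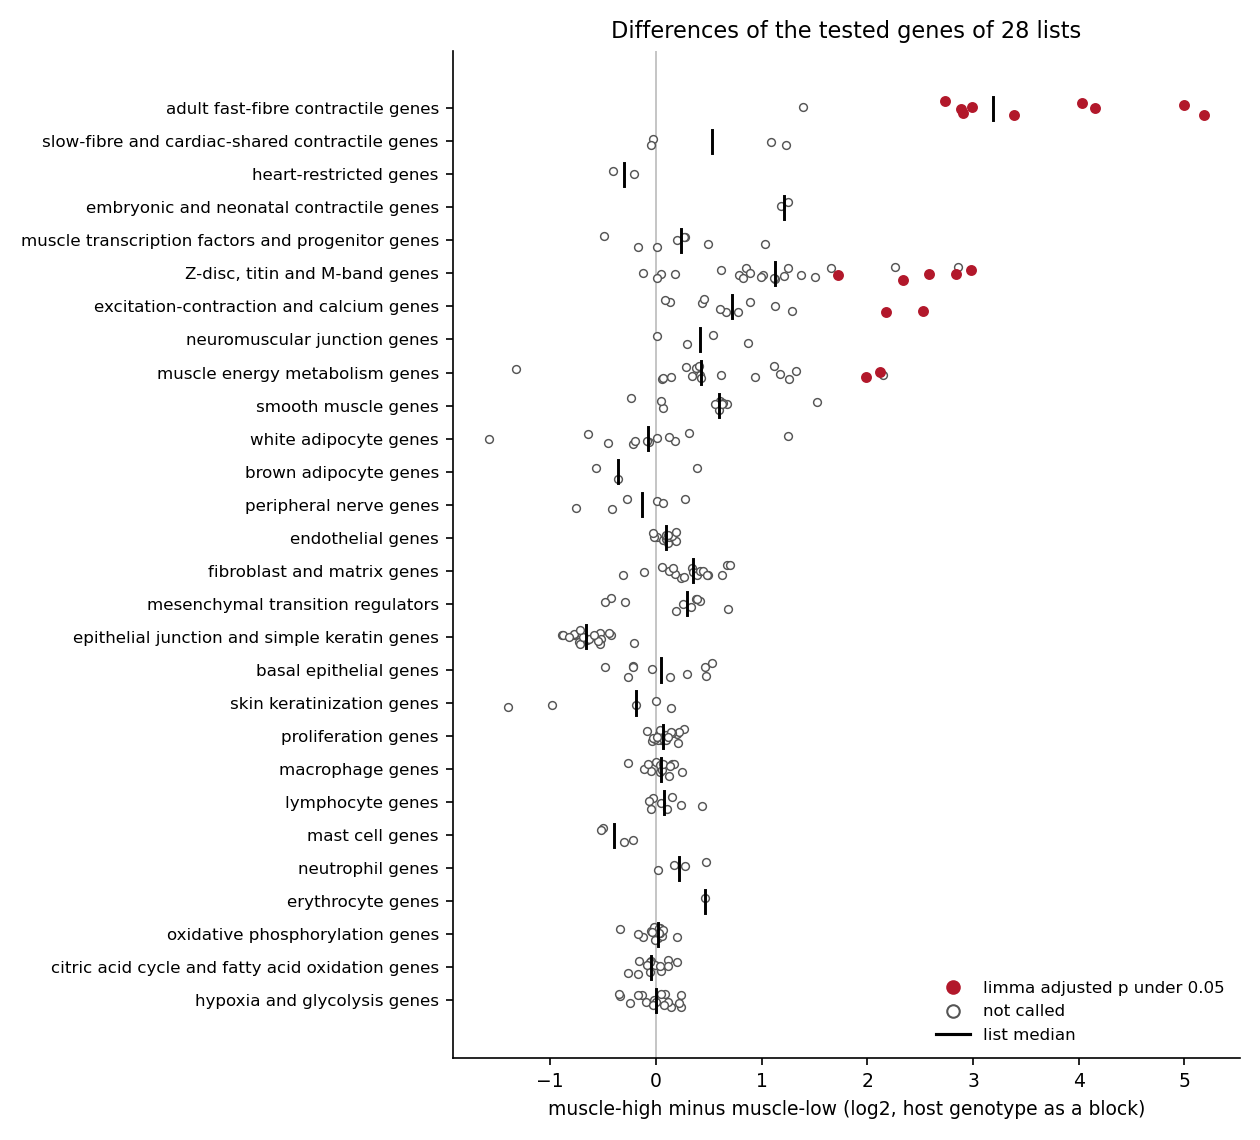
Muscle-high minus muscle-low difference (log2, horizontal axis) of each tested gene of 28 lists (vertical axis, 9 muscle lists on top), with filled points for limma adjusted p under 0.05 and a bar at each list median. The filled points lie in 4 muscle lists, led by the adult fast-fibre genes with a median of 3.19, and the epithelial points all lie left of 0 with a median of -0.66.

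The lists of slow, heart, embryonic, regulator and neuromuscular genes held no gene that passed. Of 10 slow-fibre and cardiac-shared genes 4 passed the filter, with a median of 0.53, and of 7 heart-restricted genes 2 passed, with a median of -0.31. Of 5 embryonic and neonatal genes 2 passed, with a median of 1.21, and of 18 regulator and progenitor genes 8 passed, with a median of 0.23. Of 10 neuromuscular junction genes 4 passed, with a median of 0.42. Of the heart genes, Myh6 (the atrial heavy chain), Nppa (the atrial natriuretic peptide) and Nkx2-5 (a heart transcription factor) were below the median of all values, 5.83, on every array.

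Part of most muscle lists, the embryonic and regulator lists among them, stood out in a pair of muscle-high tumors, WT irradiated 11 and WT irradiated 59. Both tumors were above all other 54 for 4 of 5 measured embryonic genes and for 9 of 16 measured regulator and progenitor genes. The same held for 6 of 11 adult fast-fibre genes, 17 of 35 Z-disc, titin and M-band genes and 9 of 17 excitation-contraction genes. For energy metabolism genes it held for 6 of 22, and for heart-restricted genes for 0 of 6. The share over all genes was not counted, so these counts and those below have no background beside them. The pattern in this pair was picked out after its values were seen, and it is given as values with no test. Myh3, the embryonic myosin heavy chain, was 10.39 in WT irradiated 11 and 10.11 in WT irradiated 59, against a maximum of 4.41 in the other 54 tumors. Myh8, the perinatal heavy chain, was 7.69 and 7.66, against a maximum of 4.02. Neither myosin overlapped with any other tumor.

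Among the 9 regulators were the following. Myog, the factor that drives differentiation into fibres, was 12.53 in WT irradiated 11 and 11.76 in WT irradiated 59, and Myod1, which commits cells to muscle, was 10.37 and 7.81. Myf5, expressed in early myoblasts, was 10.62 and 10.85, and Pax7, the marker of muscle stem cells, was 9.47 and 6.89. Over the other 53 tumors, leaving out WT sham 60, the maxima were 5.29 for Myog, 4.67 for Myod1, 3.68 for Myf5 and 4.09 for Pax7. WT sham 60 lay between for Myog (7.13), Myf5 (5.72) and Cdh15 (M-cadherin of myoblasts, 7.87), while its Myod1 was 4.76 and its Pax7 3.56.

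The other 7 regulators did not set the pair apart. Myf6, a late myogenic factor, was 3.52 in WT irradiated 11, 6.86 in WT irradiated 59 and 6.68 in WT sham 60, against at most 5.81 in the other 53 tumors. Pax3, a factor of embryonic muscle progenitors, was 6.52 in WT irradiated 11 and 4.72 in WT irradiated 59, against up to 8.15 elsewhere. For Eya1, Eya4, Mef2a, Mef2c and Mef2d at least 1 other tumor also exceeded 1 or both of the pair.

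Both tumors were also above all others for 6 of 10 measured neuromuscular junction genes, and among the 9 regulators was a gene of cell fusion. Mymk, the fusion protein myomaker, was 8.45 in WT irradiated 11 and 8.17 in WT irradiated 59, against at most 4.40 in the other 54 tumors. Chrna1, the alpha subunit of the muscle acetylcholine receptor, was 11.60 and 10.09, against at most 6.35, and Chrng, the subunit of the fetal receptor, was 7.91 and 8.12, against at most 5.29. Of 10 measured slow-fibre genes 7 were above all other tumors in both, among them Myh7, the slow heavy chain, at 6.79 and 9.08 against at most 5.48, and Myl2, its light chain, at 7.56 and 9.00 against at most 4.51. The other 3 were Myl3, Tpm3 and Atp2a2, for which another tumor exceeded at least 1 of the pair. Tnnt2, a troponin of heart and embryonic muscle, did not mark these tumors, since its median was already 8.81 in the muscle-low group.

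These 2 tumors also differed from each other. WT irradiated 11 had the highest Tnnc2 (13.01), Myl1 (12.06) and Myh2 (9.28) of all 56 tumors, but its Myh4, at 4.29, and Pvalb, at 5.62, were below those of every other muscle-high tumor. WT irradiated 59 had Myh4 at 10.92 and Pvalb at 9.49, beside Tnnc2 at 12.50 and Myl1 at 11.47.

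In the other 11 muscle-high tumors the adult fast list was above its muscle-low range, while the embryonic and regulator lists overlapped with theirs. Over these 11 the score of the adult fast-fibre list ran from 5.74 through 7.04 to 9.80, against 4.26 through 4.54 to 5.02 in the muscle-low tumors. The mean log2 value of the embryonic list ran from 4.96 through 5.48 to 5.72 in these 11 tumors and from 4.41 through 5.12 to 5.81 in the muscle-low tumors. Tnnt2, 1 of the 5 genes in that mean, alone ran from 4.48 to 11.33 in the muscle-low tumors. The overlap of the embryonic list thus rests in large part on Tnnt2. Myh3 ran from 3.23 to 4.41 in these 11 and from 3.48 to 4.02 in the muscle-low tumors. For the regulator list it ran from 5.02 through 5.28 to 5.57 in these 11 and from 4.98 through 5.36 to 5.65 in the muscle-low tumors. A single regulator, Myf6, had a median of 4.09 in these 11, above the muscle-low maximum of 3.48. Without WT irradiated 11 and 59, limma called 17 of 12504 genes higher (0.136%), of which 15 were among the 18. Without WT sham 60 as well it called 15 (0.12%), of which 13 were among the 18.

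**Figure D3:**
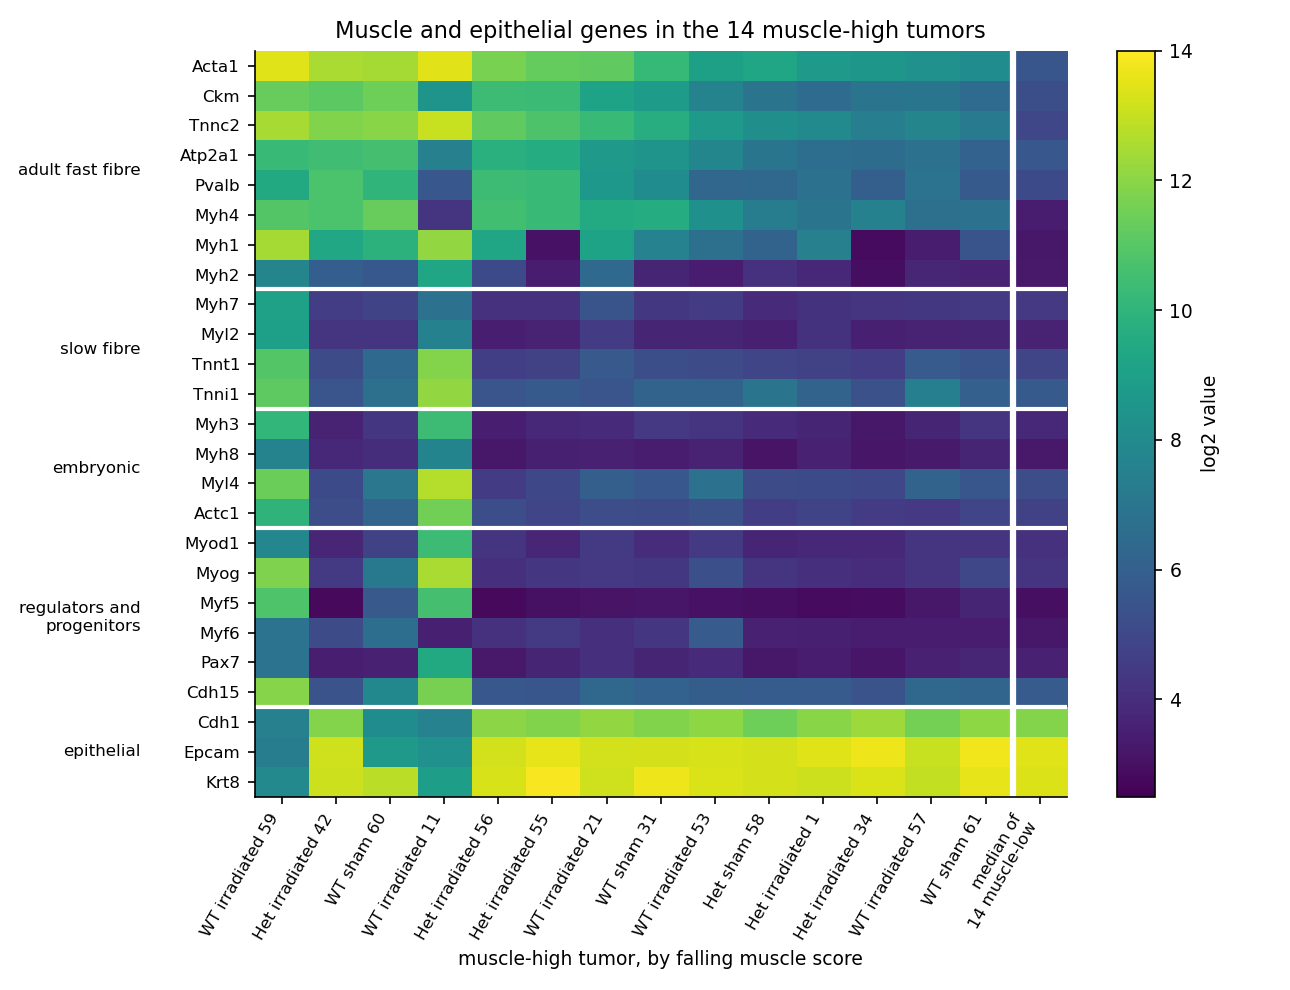
Log2 value (colour) of 25 genes in rows, grouped by role, in each of the 14 muscle-high tumors in columns by falling score, with the median of the 14 muscle-low tumors in the last column. WT irradiated 59 and 11 show higher Myh3, Myog and Myh7 than any other column, and together with WT sham 60 they show low Cdh1 and Epcam.

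Epithelial genes stood apart in the same tumors. Cdh1, the adhesion protein of epithelial junctions, was 7.58 in WT irradiated 11, 7.51 in WT irradiated 59 and 8.08 in WT sham 60, and ran from 11.48 to 12.29 in the other 11 muscle-high tumors. The mean log2 value of 20 genes of epithelial junctions and simple keratins was 6.29, 5.93 and 6.53 in these 3 tumors. It ran from 8.84 through 10.46 to 10.99 in the other 11 muscle-high tumors and from 6.93 through 10.64 to 11.09 in the muscle-low tumors. The 3 tumors were not alike for every gene of this list. Krt8, a simple keratin, was 8.97 in WT irradiated 11 and 7.91 in WT irradiated 59, but 12.83 in WT sham 60. In the other 11 it ran from 12.95 to 13.89. Vim, the intermediate filament of mesenchymal cells, was 14.05, 13.74 and 14.08 in the 3 tumors, against 11.22 through 12.11 to 13.62 in the other 11 and 10.43 through 12.31 to 14.06 in the muscle-low tumors, whose range held 2 of the 3 values. All 20 epithelial genes had a negative muscle-high minus muscle-low difference, with a median of -0.66 and 0 called. Without these 3 tumors 16 of the 20 differences were positive and the median was 0.31, again with 0 called.

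**Figure D4:**
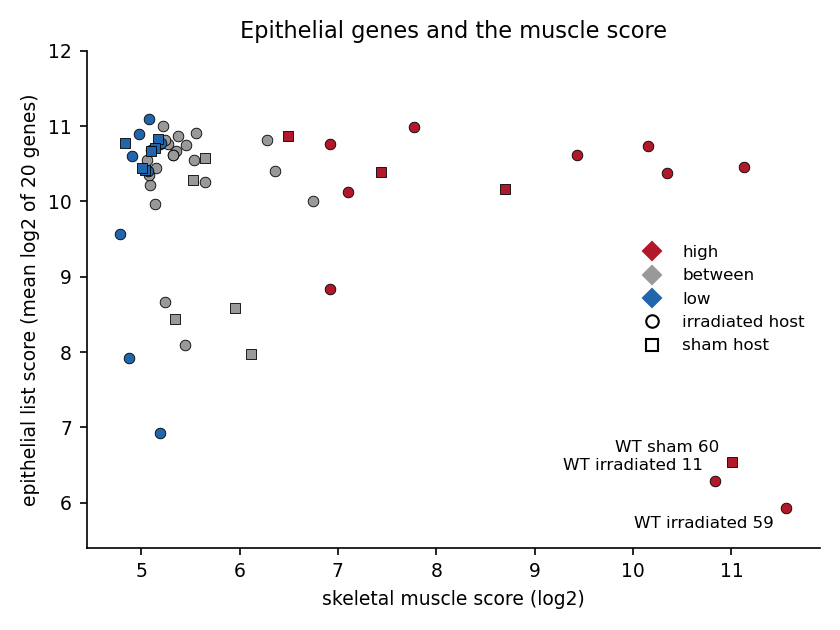
Mean log2 value of 20 epithelial genes (vertical axis) against the skeletal muscle score (horizontal axis) in all 56 tumors, coloured by group and shaped by host treatment. WT irradiated 11, WT irradiated 59 and WT sham 60 lie alone at the lower right, at 6.29, 5.93 and 6.53, while the other 11 muscle-high tumors lie at 8.84 to 10.99.

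No gene outside the muscle lists, which were chosen with earlier results known, passed this test in either direction, out of 12418 such genes (0%). With the score as a slope over all 56 tumors 186 genes passed, of which 133 lay outside the muscle lists, and without WT irradiated 11 and 59 and WT sham 60 it was 39, of which 4 did. In the comparison of the 2 groups, 182 of the 12418 genes were higher and 204 lower in muscle-high tumors at an unadjusted p under 0.05. The 3 lowest p-values among the higher genes belonged to Mustn1, a small nuclear protein of muscle and skeleton (1.11, limma adjusted p = 0.147), Sox11, a transcription factor of embryonic tissues (1.93, adjusted p = 0.287), and Palm, paralemmin of the plasma membrane (0.47, adjusted p = 0.482). Among the lower genes they belonged to Zfp937, a zinc finger gene (-0.71, adjusted p = 0.287), Ica1, a protein of secretory vesicles (-0.96, adjusted p = 0.377), and Slc16a6, a solute carrier (-0.55, adjusted p = 0.529). Sox11 ran from 4.60 to 10.39 in muscle-high and from 4.52 to 8.42 in muscle-low tumors, so the groups overlapped. Tgfb1, of which Het hosts lack 1 copy, ran from 8.50 to 9.99 in muscle-high and from 8.05 to 9.34 in muscle-low tumors of WT hosts. In Het hosts it ran from 7.82 to 8.42 in muscle-high and from 6.24 to 9.62 in muscle-low tumors. The ranges overlapped in both, with a difference of 0.05 ± 0.23 (limma adjusted p = 0.997).

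The 19 lists of other cell types and processes held 254 genes, of which 207 passed the filter, with 0 called and a median difference of 0.04. Smooth muscle genes, which share part of the contractile machinery, had a median of 0.60 over 10 genes, 9 of them positive. Their mean log2 value ran from 6.17 through 7.24 to 8.69 in muscle-high and from 6.46 through 6.74 to 7.11 in muscle-low tumors. The gene nearest to the threshold was Synpo2, an actin-binding protein (1.53, limma adjusted p = 0.774). Fibroblast and matrix genes had a median of 0.35 over 18 genes, and 0.10 without the 3 tumors of low epithelial genes. White adipocyte genes, which mark the fat pad of the host, had a median of -0.08 over 12 genes, and their mean log2 value ran from 6.21 to 8.20 in muscle-high and from 6.14 to 8.42 in muscle-low tumors. Peripheral nerve genes had a median of -0.13 over 6 genes, endothelial genes 0.10 over 13, and proliferation genes 0.07 over 22.

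Array quality measures overlapped between the groups. In WT hosts the mean 18S control value ran from 9.44 through 11.43 to 13.14 in muscle-high tumors and from 9.62 through 13.17 to 13.31 in muscle-low tumors. In Het hosts it ran from 11.16 through 12.16 to 13.25 in muscle-high tumors and from 10.97 through 11.53 to 12.87 in muscle-low tumors, so the medians differed in opposite directions. It was below 11 in 4 of 8 muscle-high WT tumors (WT irradiated 57 and 59, WT sham 60 and 61) and in 1 of 8 muscle-low WT tumors, and in 0 of 6 muscle-high and 2 of 6 muscle-low Het tumors. Without these 7 arrays 15 genes were called higher (0.12%), all among the 18, and Pvalb, Pygm and Mybpc1 missed the threshold with differences of 2.77, 1.80 and 1.52 log2 units (limma adjusted p = 0.0786, 0.195 and 0.239). The mean difference between 3′ and 5′ control probe sets was 0.28 ± 0.19 in muscle-high and 0.28 ± 0.14 in muscle-low tumors (SD, n = 14 each), with a maximum of 0.91 in WT irradiated 57. With the 18S value as a covariate 16 genes were called higher, and with the 3′ to 5′ difference 18.

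In the 28 tumors between the groups the score was used as a continuous term, with host genotype as a block. Muscle genes follow a score made of muscle genes, so their slopes and adjusted p-values describe shared variation and are no independent test. limma called 8 of 12504 genes with a positive slope (0.064%) and 0 with a negative one. Of the 8, 7 were among the 18: Tnnc2 (1.80 log2 units per unit of score, adjusted p = 1.48e-10), Myh1 (2.60), Myh4 (1.30), Myl1 (1.04), Atp2a1 (0.57), Neb (0.54) and Pvalb (0.50). Myh4, Neb and Pvalb stayed below the filter level of 5.83 in all 28 tumors, with maxima of 5.80, 3.90 and 5.81. They stayed below it in the muscle-low tumors too, so they passed the filter only through the muscle-high tumors. Their slopes therefore rest on dim values. Myl1 barely reached that level, with maxima of 5.85 in WT and 5.68 in Het hosts and medians of 4.51 and 3.96. Its slope too rests largely on dim values. The remaining gene, Serpinb2, an inhibitor of plasminogen activators that is in no list, had a slope of 2.35 (adjusted p = 0.0380) and was named after its value was seen. Its muscle-high minus muscle-low difference had the opposite sign, at -0.18 (limma adjusted p = 0.997). Of the 86 muscle genes tested 52 had a positive slope over the 28 tumors, with a median of 0.10, against 5902 of 12418 other genes. Within the muscle lists, the adult fast-fibre genes had a median slope of 0.92 (10 of 10 positive, 6 called). It was 0.28 for the Z-disc, titin and M-band genes, -0.03 for excitation-contraction genes and -0.02 for energy metabolism genes. Some lists of other cell types had steeper medians than the 86 muscle genes together, with 0 called. These were 0.96 for fibroblast and matrix genes (18 of 18 positive) and 0.84 for mesenchymal transition regulators (7 of 10). Endothelial genes had 0.54 (13 of 13) and epithelial genes -0.49 (1 of 20 positive). Their part in the muscle slopes was not tested.

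In these tumors Tnnc2 ran from 4.75 through 5.20 to 6.80 in WT hosts and from 4.53 through 4.79 to 7.99 in Het hosts. The high end was thin, with Het irradiated 23 at a score of 6.75, WT irradiated 22 at 6.36, WT irradiated 24 at 6.28 and Het sham 15 at 6.11. Het irradiated 23 had Tnnc2 at 7.99 and Myh1 at 8.01 but Myh4 at 3.72, within the range of the 14 muscle-low tumors. When each of the 28 tumors was left out in turn, Tnnc2, Myh1, Myh4 and Myl1 kept their calls in all 28 fits. Atp2a1 and Neb lost theirs in 1, Pvalb in 6 and Serpinb2 in 17. Without Het irradiated 23, 6 genes were called higher and 1 lower, and the Myh4 slope was 2.04. Without WT sham 46, 81 genes were called higher and 18 lower.

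**Figure D5:**
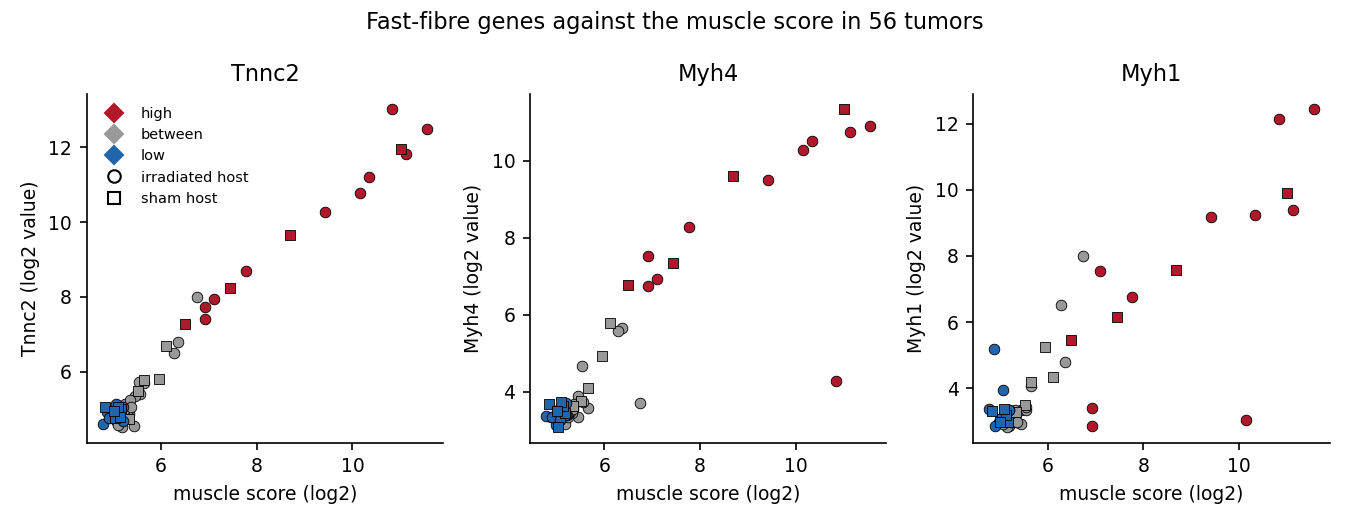
Log2 values of Tnnc2, Myh4 and Myh1 (vertical axes) against the skeletal muscle score (horizontal axes) in all 56 tumors, coloured by group and shaped by host treatment. Tnnc2 is 7.29 or more in every muscle-high tumor, while Myh4 is 4.29 in WT irradiated 11 at a score of 10.84 and Myh1 is 3.04 in Het irradiated 55 at a score of 10.15.

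The labels, not the score, define the comparison of irradiated with sham-irradiated hosts, so it was tested over all 56 tumors. In WT hosts the score was 6.27 ± 1.86 in tumors from irradiated hosts and 6.40 ± 2.09 in tumors from sham-irradiated hosts (SD, n = 23 and 9). The difference was -0.13 (two-sided exact permutation test, p = 0.875), and 13 of the 23 irradiated tumors were above the sham median. In Het hosts the score was 6.29 ± 2.09 after irradiation and 5.82 ± 0.94 after sham irradiation (SD, n = 18 and 6). That difference was 0.47 (exact permutation p = 0.611, and 0.875 for both after adjustment over the 2 comparisons), and 6 of the 18 irradiated tumors were above the sham median. The 2 effects differed by 0.60 (Het minus WT, 100000 permutations, p = 0.607). In WT hosts the sign turned without WT sham 60, to 0.45, and without WT irradiated 59 the difference was -0.37.

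For the genes one by one, limma called 0 of 12508 genes (0%) between irradiated and sham-irradiated hosts in each genotype, with 884 in WT and 730 in Het hosts at an unadjusted p under 0.05. None of the 90 muscle genes tested, the 4 score genes included, was called, and 1 in each genotype had an unadjusted p under 0.05. These were Gys1, muscle glycogen synthase, at -0.49 in WT hosts (limma adjusted p = 0.430) and Dok7, an adaptor of the neuromuscular junction, at -0.33 in Het hosts (adjusted p = 0.810). Acta1 differed by -0.15 ± 0.90 in WT and 0.14 ± 1.08 log2 units in Het hosts (irradiated minus sham, estimate ± SE).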

How the data were processed

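Total RNA of 56 tumors was labelled (100 ng per array) for Affymetrix 3′ expression arrays, per the labels' protocols. RMA gave the deposited log2 values, 1 for each probe set, per the submitters' processing notes, with no version given in the sources used here. Array medians were 5.92 to 6.00 for WT and 5.57 to 5.71 for Het hosts, so the 2 sets were taken as normalized separately, which no source used here states, and tumors were ranked within host genotype with genotype as a block. Replicates are separate tumors, and no columns were identical. The number of arrays limits the precision.

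The arrays hold 45101 probe sets: 34958 with a single symbol in the platform annotation, 932 with more than 1, and 9211 without a name here. Symbols were updated through the GRCm38.p6 annotation. Probe sets above 5.83, the median over all arrays, on 6 or more of 56 arrays passed the filter, and each gene was read from its passing probe set of highest mean, which left 12508 genes. Genes that failed the filter are described by their probe set of highest mean, without a test.

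limma 3.58.1 in R 4.3.3 (lmFit, eBayes) was fitted to the 28 chosen arrays, and score genes were left out of the results. Host irradiation was fitted on all 56 arrays with 4 group means. The threshold was a Benjamini-Hochberg adjusted p of 0.05 over all genes. List scores average the log2 values of the measured genes in a list. The code was tested on simulated data. Named genes were the score genes, 15 genes taken whatever their values, up to 4 members of each list with the lowest p, and the 3 genes of lowest p per direction outside the muscle lists. Members, lists and named genes were chosen with earlier results of these data known. Ranges over both genotypes hold that offset. Genes named in the account of single tumors and of the tumors between the groups were chosen after their values were seen. Alternatives covered filter, normalization, variance model, covariates, group size, score genes and left-out arrays. No value is given here for the gene that the transplants lack.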

Additional observations from a re-analysis of the deposited data

Results flagged for a closer look

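Values of the 4 score-defined groups of 8 WT or 6 Het tumors were checked for a single tumor far from the rest of its group, in 94 sets of values. Chance flags about 1 in 20 such sets, and 8 were found. Among the quality measures, the 18S control was 9.62 in WT sham 65, the lowest of the muscle-low WT tumors. The difference between 3′ and 5′ control probe sets was 0.91 in WT irradiated 57, the highest of the muscle-high WT tumors, and 0.15 in Het irradiated 56, the lowest of the muscle-high Het tumors. Among the cell type measures, the epithelial list score was 6.93 in WT irradiated 25, far below the other muscle-low WT tumors. Among the myosins, Myh1 was 3.94 in WT irradiated 5 and 5.17 in Het irradiated 29, each the highest of its muscle-low group. Among the regulators, Myod1 was 4.23 in Het irradiated 56, the highest of the muscle-high Het tumors, and Myog was 3.78 in Het irradiated 4, the lowest of the muscle-low Het tumors. Each of these regulator values is below the median of all values on the arrays, 5.83.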

How the results depend on the processing

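The number of genes higher in muscle-high tumors was 18. It was 6 with a filter on the mean over all arrays, 29 with the top and bottom 4 WT plus 3 Het tumors, 9 with all tumors split at the middle rank, 3 in WT and 1 in Het tumors alone, 8 with the score as a slope over the 28 tumors between the groups, 123 with the slope over all 56 tumors, and 39 with the slope over 53 tumors, without WT irradiated 11 and 59 and WT sham 60. The number of lower genes was 0, against 1 with the epithelial list score as a covariate, 1 each with a score without Acta1 or without Tnnt3, and 63 with the slope over all 56 tumors. Genes outside the muscle lists, 0 here, numbered 133 with that slope and 4 over 53 tumors. They numbered 2 each with the smaller groups and the epithelial covariate. There was 1 each with a score without Acta1, Ckm or Tnnt3, without WT irradiated 53, and over the 28 tumors. The cause of these changes was not tested. With each tumor left out in turn the ranges were 16 to 23 higher and 0 to 0 lower genes, and over the 28 tumors between the groups 6 to 81 higher (14 at most if WT sham 46 stays in) and 0 to 18 lower. For the irradiation difference of the score they were -0.37 to 0.45 in WT and 0.19 to 0.79 in Het hosts. The other alternatives gave 15 to 21 higher genes, and 0 lower except as given. No paired analysis was possible because replicate numbers do not recur across groups. Fits that leave out tumors, and the slopes over 53 tumors and over the tumors between the groups, were partly chosen after seeing the data. Differences of genes that sit near the lower limit of the arrays are compressed.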

Other observations

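Over the 28 tumors between the groups, further lists of other cell types and processes gave slopes on the muscle score that are reported as values, with 0 genes called in any of these lists. Lymphocyte genes had a positive slope in 8 of 8 genes (median 0.56 log2 units per unit of score) and macrophage genes in 13 of 14 (median 0.21). Hypoxia and glycolysis genes had one in 1 of 17 (median -0.27). Het sham 15 and Het sham 19, with epithelial list scores of 7.97 and 8.58, are among the highest muscle scores there, at 6.11 and 5.96. Other tumors there went the other way. Het irradiated 7, WT sham 46 and WT irradiated 16 had epithelial list scores of 8.10, 8.44 and 8.67. Their muscle scores were 5.44, 5.34 and 5.24. WT irradiated 22 and WT irradiated 24 had epithelial list scores of 10.40 and 10.81 at muscle scores of 6.36 and 6.28. Het irradiated 23, highest there in muscle score (6.75), also had a higher epithelial list score than Het sham 15 and 19.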
